A study of Mus musculus with 132 samples.

Results

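The genes described here are Trp53, which encodes the transcription factor p53, and 9 of its classical target genes, Cdkn1a, Mdm2, Ccng1, Bax, Bbc3, Pmaip1, Trp53inp1, Phlda3 and Zmat3. They were chosen by name, with earlier results of these data known, and all 10 were found among the 32245 genes of the count table. Their levels were compared over all single cells of a series of mouse preimplantation embryos, by stage and by treatment.

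p53 is kept low in unstressed cells by MDM2, a ubiquitin ligase that marks it for destruction and is itself a p53 target, so that the pair forms a negative feedback loop. Stress such as DNA damage stabilises the p53 protein, which then switches on genes for cell cycle arrest (Cdkn1a, which encodes the cyclin-dependent kinase inhibitor p21), for mitochondrial cell death (Bax, Bbc3 and Pmaip1, which encode BAX, PUMA and NOXA) and for feedback and survival control. Because this control acts mainly on the protein, the Trp53 transcript and the transcripts of its targets need not move together. In the early mouse embryo p53 is known for removing damaged or less fit cells.

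The embryos came from crosses of C57BL/6NCrl x DBA/2NHsd F1 females and males. From the 2-cell stage they were cultured in medium that held either a synthetic mimic of the microRNA miR-381-3p or a scrambled negative control mimic, so both arms received an oligonucleotide. Cells were taken at the 8-cell stage (embryonic day 2.5), with 30 control and 24 mimic cells, and at the 32-cell stage (embryonic day 3.5), with 39 control and 39 mimic cells. The mimic was used at 10 µM for 8-cell embryos and at 5 µM for 32-cell embryos, a split that is not on the sample labels, which allow 5 or 10 µM for a cell. Each group was made from 3 to 5 embryos, but no label ties a cell to its embryo. Each group was therefore treated as 1 sample, and no p-value or standard error was computed. Polyadenylated RNA was read over whole transcripts with Smart-seq2, which does not show the small mimic itself, so the treatment labels had no direct check.

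Values are counts per 1000000 counts (CPM) outside the 13 mitochondrial genes, pooled over the cells of a group. Their 95% intervals are exact Poisson intervals, and those of ratios are exact conditional binomial intervals. Both cover counting error alone, and say nothing of how cells or embryos vary. Exact binomial intervals of shares of cells treat the cells as independent draws, although cells share embryos, so they describe these cells and not the treatment. Log2 changes were taken on CPM + 1, a scale that understates the change of low genes. A gene was compared when it reached 20 CPM in either group, and was called higher or lower at a change of 2-fold or more. The comparisons share groups with each other, so they are not independent.

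Total counts per cell ran from 544866 to 3461022, and genes with a count from 3243 to 8983. Trophectoderm (TE) markers fitted the stage labels, with 8 of 9 called higher at the 32-cell stage in control and in mimic cells. Over all genes compared 30% were higher and 20.1% lower in control, and 29.1% and 18.8% in mimic cells. Markers of the inner cell mass (ICM) gave 3 higher and 3 lower of 8 in control, and 3 and 2 of 8 in mimic cells. Some of the markers called reached 20 CPM only at the stage where they were high. None of 11 markers of cumulus, oviduct and blood cells reached 20 CPM in any group. The 2 8-cell control cells whose titles carry the numbers 87 and 88 stood apart in the genes described here, and so did 3 8-cell mimic cells with under 5000 genes (the other 8-cell mimic cells had at least 5963). Results that rest on these cells are given with and without them. Xist counts and those of the Y-linked genes Ddx3y, Eif2s3y, Kdm5d and Uty went with the treatment at the 32-cell stage. Y-linked counts were above Xist in 39 of 39 control cells and in 0 of 39 mimic cells, while Xist was the higher in all 39 mimic cells. The 32-cell treatment therefore cannot be told apart from embryo sex, nor from differences between single embryos. At the 8-cell stage 23 of 30 control cells and 14 of 24 mimic cells had more Xist than Y-linked counts.

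The microRNA whose mimic was given is shown first, because the capitals mark the seed (bases 2 to 8) that pairs with target transcripts. The mature sequence is that of RefSeq on GRCm38.p6, at chr12:109726870-109726891 on the plus strand.
mmu-miR-381-3p: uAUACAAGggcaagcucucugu

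Matches to this seed were searched in the sense strand of each gene's longest 3′ UTR, as CTTGTATA (8 bases), CTTGTAT (7 bases) or TTGTATA (7 bases, ending in A). In the GENCODE M21 annotation, on the same mouse build as mm10, 21.6% of 20775 genes with a 3′ UTR held at least 1 of these. Of the 10 p53 genes, 4 did, namely Mdm2, Pmaip1, Trp53inp1 and Zmat3, and 0 held the 8-base site. Their 3′ UTRs ran from 2192 to 6692 bases, and those of the genes without a site from 224 to 2316 bases. The median over all genes with a 3′ UTR was 1091 bases. Longer 3′ UTRs offer more places for a match, and length was not taken into account. Trp53 itself held none in its 565 bases of 3′ UTR. The sites of 3 genes are printed with 10 bases on either side and the match in capitals. They lie at chr10:117689759-117689785 (minus strand) for Mdm2, at chr4:11171112-11171138 and chr4:11173497-11173523 (both plus strand) for Trp53inp1 and at chr3:32339055-32339081 (minus strand) for Zmat3.
Mdm2 3′ UTR site: atgtgaaggaTTGTATAtttaagttat
Trp53inp1 first 3′ UTR site: gttgtgaggaTTGTATActgattggaa
Trp53inp1 second 3′ UTR site: tctgttaaaaTTGTATAtgaacacctg
Zmat3 3′ UTR site: gttgtctttaCTTGTATtcggtgggta

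Promoters of 300 bases, from 250 bases before to 50 bases after a transcription start (RefSeq, GRCm38.p6), were at hand for 7 of the 10 genes, but not for Pmaip1, Trp53inp1 and Zmat3. They were searched for the p53 half-site consensus, which reads the same on both strands. At least 1 half-site was present in 1 promoter each of Trp53, Cdkn1a, Mdm2, Ccng1 and Bax, 5 of 10 promoters of these genes, against 8.36% of 32851 promoters. No match was found in the other Cdkn1a promoter, in the 3 Bbc3 promoters or in that of Phlda3. The first Cdkn1a promoter, with 2 half-sites starting 73 and 51 bases before the start, was 1 of 24 promoters (0.0731%) with 2 half-sites separated by at most 13 bases. It is printed with that of Ccng1, whose half-site starts 185 bases before the start, because these genes differed most clearly by treatment in the counts below. Capitals mark the half-sites, which are letter matches and not measured binding. The Cdkn1a sequence is chr17:29090729-29091028 on the plus strand, and the Ccng1 sequence is chr11:40755237-40755536 on the minus strand.
Cdkn1a promoter: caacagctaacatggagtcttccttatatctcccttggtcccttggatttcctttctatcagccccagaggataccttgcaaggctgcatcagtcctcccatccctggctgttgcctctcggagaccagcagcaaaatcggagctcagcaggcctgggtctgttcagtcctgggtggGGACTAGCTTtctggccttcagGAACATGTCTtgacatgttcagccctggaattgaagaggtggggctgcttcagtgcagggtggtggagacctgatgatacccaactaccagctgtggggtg
Ccng1 promoter: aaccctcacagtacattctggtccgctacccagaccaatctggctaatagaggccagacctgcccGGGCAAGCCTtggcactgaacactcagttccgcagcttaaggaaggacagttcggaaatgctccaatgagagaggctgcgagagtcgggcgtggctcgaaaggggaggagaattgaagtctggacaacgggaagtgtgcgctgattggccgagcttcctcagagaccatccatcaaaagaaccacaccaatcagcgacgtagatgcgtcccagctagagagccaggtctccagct

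The question of the 32-cell comparison was what the mimic changes at the blastocyst stage, and most p53 target transcripts were more abundant in mimic cells there. Of the 10 genes, 9 reached 20 CPM. Of these, 5 were called higher (Cdkn1a, Ccng1, Trp53inp1, Phlda3 and Zmat3) and 0 lower, where 6.87% of the 7307 genes compared were higher and 5.36% lower. Phlda3 and Zmat3 reached 20 CPM in mimic cells alone, so that they were compared only because they were high there. Of the 7 genes with 20 CPM in control cells 3 were higher. The median log2 change over all 10 genes, with no filter, was 1.37, and over the 7307 genes compared it was 0.008. The transcript of p53 itself was close in the 2 groups. The values of single cells are shown in the plot of all 10 genes by group.

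**Figure D1:**
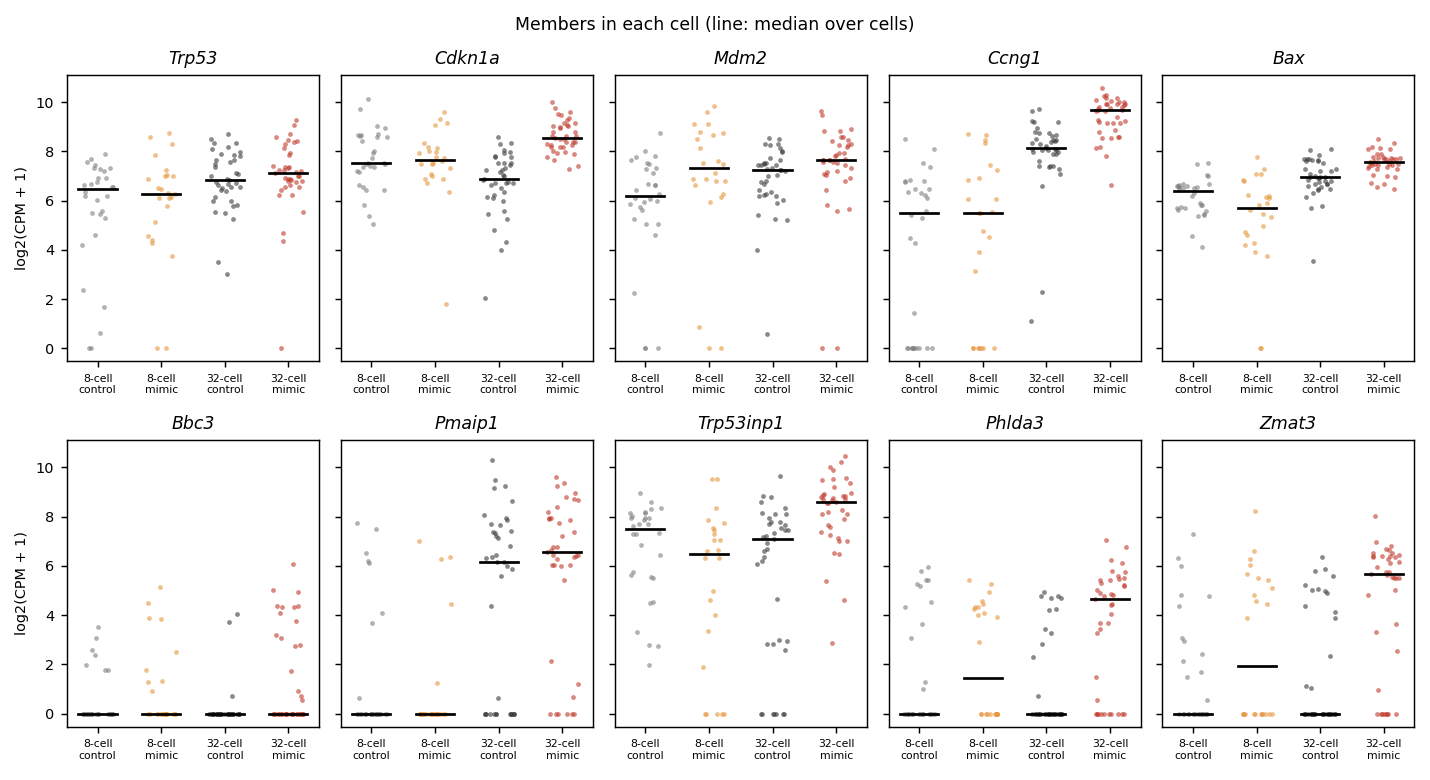
Level of each p53 gene in every cell, as log2(CPM + 1) on the vertical axis, for the 4 groups (8-cell control, 30 cells; 8-cell mimic, 24; 32-cell control, 39; 32-cell mimic, 39); each point is a cell and each line the median over cells. At the 32-cell stage all 39 mimic cells lie above the control median of Cdkn1a, and the Trp53 points of the groups overlap.

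Trp53 (chr11:69580359-69591873, plus strand) had a pooled level of 138.7 CPM (interval 136 to 142) in 32-cell control cells and 166.4 CPM (162.9 to 170) in 32-cell mimic cells. Over control cells it ran from 7.10 to 413 CPM with a median of 114.2, and over mimic cells from 0 to 614 CPM with a median of 139.2. The ranges of the groups overlapped, with 3 of 39 mimic cells above the highest control cell. The ratio was 1.20 (1.16 to 1.24), short of 2-fold, and the log2 change turned to -0.07 without the first of the 3 mimic runs described below. The mouse genome also holds a processed pseudogene of Trp53, so reads of the gene may have been split with it in counting.

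Cdkn1a (chr17:29090976-29100727, plus strand) separated the groups most fully. Its level in control cells ran from 3.08 to 385 CPM with a median of 116.1, and in mimic cells from 153.8 to 1033 CPM with a median of 377. All 39 mimic cells were above the control median, and 19 were above the highest control cell. The pooled levels were 138 CPM (135 to 140.7) and 420 CPM (415 to 426), a ratio of 3.05 (2.98 to 3.13) and a log2 change of 1.60. An annotated transcript on the other strand overlaps its exons, and reads of both could not be told apart without strand.

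Ccng1 (chr11:40748552-40755311, minus strand) encodes cyclin G1, a p53 target that takes part in feedback on p53 through MDM2. It ran from 1.18 to 845 CPM over control cells (median 279) and from 97.7 to 1545 CPM over mimic cells (median 822). Of the mimic cells, 36 were above the control median and 17 above every control cell. Pooled over cells it went from 316 to 760 CPM, a ratio of 2.41 (2.36 to 2.45).

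Mdm2 (chr10:117688875-117710758, minus strand), the main negative regulator of p53, was not called. Its cells ran from 0.490 to 373 CPM in control (median 148.6) and from 0 to 804 CPM in mimic (median 199), and the groups overlapped widely. The pooled ratio was 1.59 (1.55 to 1.64), from 148.9 to 237 CPM.

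Trp53inp1 (chr4:11156431-11174379, plus strand) encodes a stress protein that promotes p53 activity and autophagy. It was listed at 0 in at least 1 control cell and reached 797 CPM (median 134), against 6.33 to 1410 CPM in mimic cells (median 383). It had a count in 32 of 39 control cells (82.1%, exact binomial interval 66.5 to 92.5%) and in 39 of 39 mimic cells. The pooled ratio was 2.80 (2.73 to 2.87), from 151.8 to 425 CPM, with a log2 change of 1.48. It fell short of 2-fold, at 0.94, without the second mimic run, and was 2.63 with the mean of log2 values over cells.

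Phlda3 and Zmat3 were under 20 CPM in control cells and passed the filter through the mimic cells. Phlda3 (chr1:135766119-135769136, plus strand) encodes a small membrane-binding protein that holds back AKT signalling, and Zmat3 (chr3:32334792-32366014, minus strand) encodes a zinc finger RNA-binding protein. Phlda3 had a count in 12 of 39 control cells (30.8%, 17.02 to 47.6%) and in 29 of 39 mimic cells (74.4%, 57.9 to 86.96%). Its cells ran from 0 to 29.3 CPM in control and from 0 to 133 CPM in mimic, with medians of 0 and 23.97 CPM. The pooled level went from 4.32 to 28.6 CPM, a ratio of 6.62 (5.78 to 7.61) and a log2 change of 2.48. Its 2 control runs, described below, were at 2.00 and 7.79 CPM, and the log2 change was 1.75 without the first and 3.31 without the second.

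Zmat3 had a count in 15 of 39 control cells (38.5%, 23.4 to 55.4%) and in 31 of 39 mimic cells (79.5%, 63.5 to 90.7%). Its highest cell had 82.3 CPM in control and 262 CPM in mimic, with medians of 0 and 49.3 CPM. The pooled level went from 9.10 to 54.3 CPM, a ratio of 5.96 (5.43 to 6.56) and a log2 change of 2.45, which was 1.86 without the first control run and 3.05 without the second. With every cell thinned to 500000 counts, the share of cells with a count was 35.9% in control and 79.5% in mimic for Zmat3, and 28.2% and 69.2% for Phlda3.

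The 3 genes of mitochondrial cell death differed less, or were too low to compare. Bax (chr7:45461697-45466898, minus strand) encodes the pore-forming effector. It ran from 10.7 to 276 CPM in control cells (median 123) and from 87.4 to 358 CPM in mimic cells (median 187), with 35 of 39 mimic cells above the control median. Its pooled ratio was 1.41 (1.36 to 1.45), short of 2-fold, and an annotated gene model on the same strand shares exons with it.

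Pmaip1, which encodes NOXA, a BH3-only protein that counters MCL1, had a ratio of 1.302 (1.26 to 1.34), from 141.4 to 184 CPM. It ran from 0 to 1259 CPM over control cells (median 70.7) and from 0 to 782 CPM over mimic cells (median 92.4). The groups overlapped over nearly their whole range. Under 16 alternative settings, described at the end, its log2 change ran from -1.39 in ICM-like to 1.99 in TE-like cells. It was past 2-fold higher under 3 of them and lower under 1.

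Bbc3 (chr7:16308393-16318205, plus strand), which encodes the BH3-only protein PUMA, stayed under 20 CPM in every group and was therefore not compared. Its 22 control counts lay in 3 of 39 cells and its 396 mimic counts in 17 of 39 (43.6%, 27.8 to 60.4%). These are pooled levels of 0.387 and 7.44 CPM.

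The cell numbers in the titles fall into runs of consecutive numbers, 2 for 32-cell control cells (24 and 15 cells) and 3 for 32-cell mimic cells (18, 12 and 9 cells). They are called the first, the second and the third run in the order of their numbers, and what a run stands for is not stated. All 3 mimic runs were above both control runs for 8 of the 10 genes, and for 7 of the 9 that reached 20 CPM. Of all genes compared, 16.8% were above and 16.5% below in the same way. The 7 were Cdkn1a, Ccng1, Bax, Pmaip1, Trp53inp1, Phlda3 and Zmat3. Phlda3 and Zmat3 reached 20 CPM through the mimic cells alone, so that they were compared only because they were high there. For Cdkn1a the control runs were at 137 and 138.6 CPM and the mimic runs at 431, 501 and 318 CPM. For Zmat3 the control runs were at 5.67 and 14.2 CPM and the mimic runs at 48.2, 72.5 and 42.2 CPM. For Bax and Pmaip1 the gap was narrow, with the highest control run at 155.6 and 170 CPM and the lowest mimic run at 182 and 176.1 CPM. Trp53 and Mdm2 overlapped, and both were lowest of the mimic runs in the third, at 76.5 and 154.3 CPM.

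**Figure D2:**
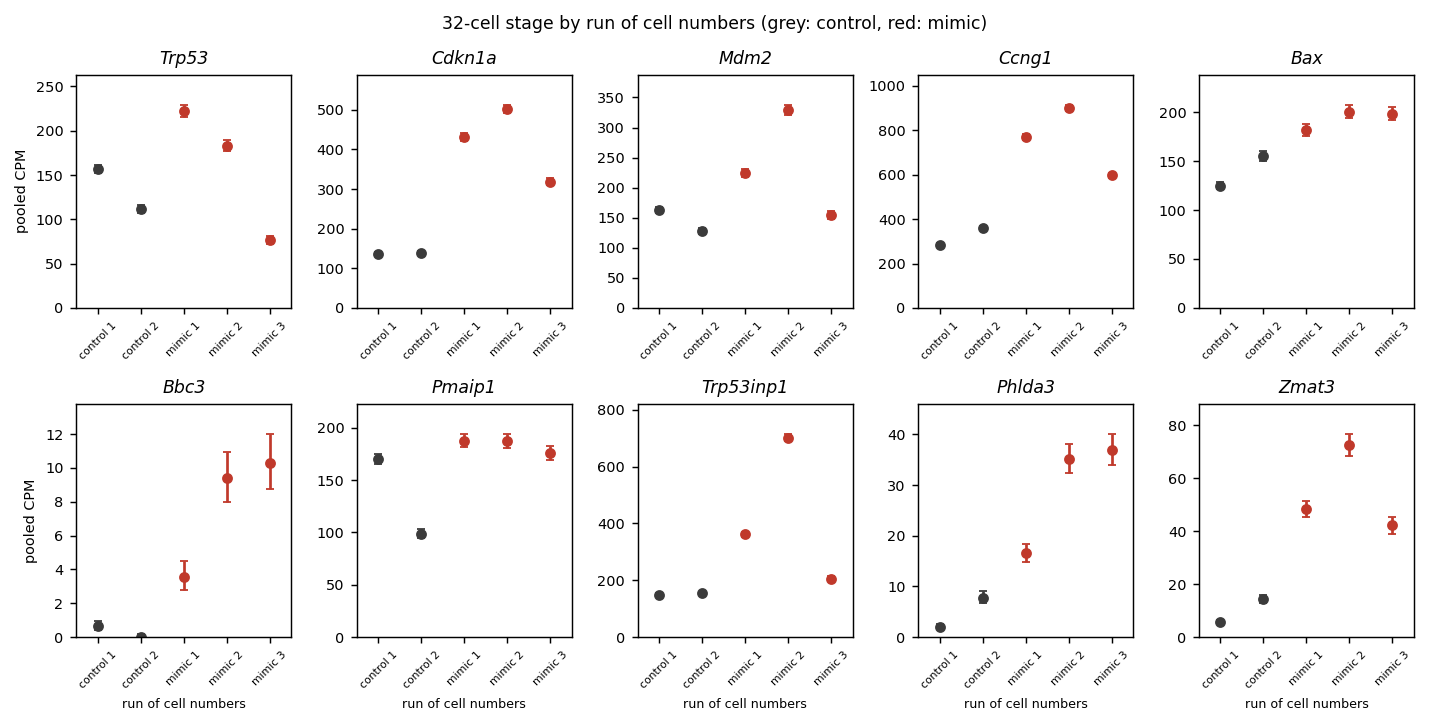
Pooled CPM (vertical axis, from 0) of each p53 gene in the 2 control runs (grey) and the 3 mimic runs (red) of the 32-cell stage, in the order of their cell numbers; bars are exact Poisson 95% intervals of the counts. The mimic runs lie above both control runs in 8 panels, and overlap with them for Trp53 and Mdm2.

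The 5 calls were kept when the counts were rescaled. Median-of-ratios scaling moved the median log2 change of all genes from 0.008 to -0.10 and the share of higher among all calls from 56.2% to 44.5%, and it left 5 of the p53 genes higher and 0 lower. Without the second mimic run the number called higher was 4.

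The same comparison was made within the lineages of the blastocyst. Clusters made without the p53 genes and without the markers gave an inner cell mass-like (ICM-like) and a TE-like class. All 9 ICM markers were highest in the first and all 9 TE markers in the second, although none was among the top 10 genes of either. ICM-like cells were 25 of 39 in control (64.1%, 47.2 to 78.8%) and 14 of 39 in mimic (35.9%, 21.2 to 52.8%). With classes drawn by marker score they were 25 of 39 and 17 of 39 (43.6%, 27.8 to 60.4%), and whether the make-up differs by treatment was not tested. Some markers differed by treatment over all 32-cell cells, where 6.87% of all genes compared were higher in mimic and 5.36% lower. Of 7 ICM markers compared 2 were lower in mimic (Tdgf1, from 249 to 11.9 CPM, and Pdgfra, from 132.2 to 40.7 CPM) and 0 higher, and of 9 TE markers 1 was lower (Tspan8, from 193 to 72.9 CPM) and 0 higher. Of 7 markers of the preimplantation embryo Obox6 was higher, from 7.77 to 44.1 CPM, having passed the filter through the mimic cells alone, and Tdgf1, which is on that list too, was lower. Their part in the values of the p53 genes was not tested.

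In ICM-like cells 4 of 8 genes compared were higher in mimic (Cdkn1a, Ccng1, Trp53inp1 and Zmat3) and 1 lower (Pmaip1), where 10.7% of all genes were higher and 9.55% lower. In TE-like cells 6 of 9 were higher (the same 4 with Phlda3 and Pmaip1) and 0 lower, where 12% of all genes were higher and 7.51% lower. Zmat3 in both classes and Phlda3 in TE-like cells again passed the filter through the mimic cells alone. Cdkn1a went from 128 to 477 CPM in ICM-like cells, a ratio of 3.72 (3.59 to 3.87). In TE-like cells it went from 150.2 to 392.4 CPM, a ratio of 2.61 (2.52 to 2.71). The Cdkn1a medians over cells were 116.1 and 443 CPM in ICM-like cells and 123 and 337 CPM in TE-like cells.

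Pmaip1 differed in opposite directions in the classes, but its size in ICM-like cells rested on how the classes were drawn. In ICM-like cells it fell from 203 CPM in control to 77.2 CPM in mimic, a ratio of 0.380 (0.358 to 0.403). In TE-like cells it went from 58.7 CPM in control to 236 CPM in mimic, a ratio of 4.02 (3.80 to 4.25). With classes drawn by marker score instead (17 ICM-like mimic cells in place of 14), the log2 change was -0.39 in ICM-like cells, short of 2-fold where the clusters gave -1.39, and 1.79 in TE-like cells. Single cells spread widely in all 4 sets, each of which held a cell listed at 0. The highest cell of the ICM-like control set had 1259 CPM.

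Trp53 itself followed the lineage. It was 193 CPM in ICM-like and 66.2 CPM in TE-like control cells, a TE-like over ICM-like ratio of 0.343 (0.325 to 0.363). In mimic cells it was 280 CPM in ICM-like cells and between 107.6 and 114.5 CPM (interval) in TE-like cells, a ratio of 0.396 (0.380 to 0.413). The medians over cells were 188 and 66.03 CPM in control and 324 and 115.8 CPM in mimic. Within each class its level was higher in mimic but short of 2-fold, with ratios of 1.45 (1.40 to 1.51) in ICM-like and 1.68 (1.58 to 1.78) in TE-like cells.

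**Figure D3:**
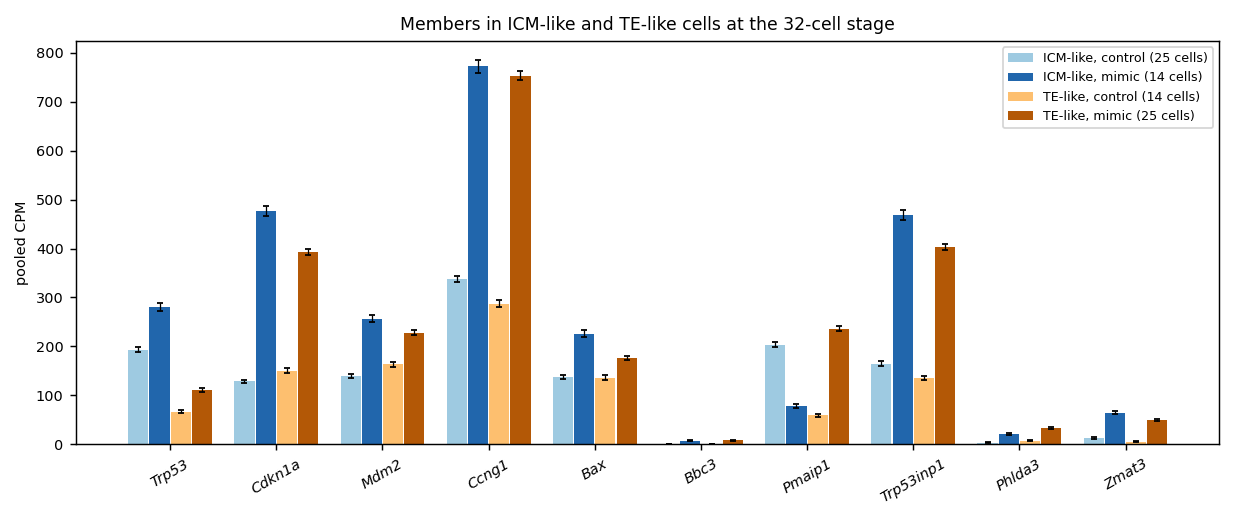
Pooled CPM (vertical axis, from 0) of each p53 gene in ICM-like and TE-like cells of 32-cell control and mimic embryos; bars end at the pooled level and error bars are exact Poisson 95% intervals. Cdkn1a and Ccng1 are higher in mimic in both classes, Pmaip1 is lower in ICM-like cells (203 to 77.2 CPM, a call that classes drawn by marker score do not give) and higher in TE-like cells (58.7 to 236 CPM), and Trp53 is higher in ICM-like than in TE-like cells.

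Other genes of the pathway were taken from lists of p53 regulators, further targets and BCL2 family members. Of 36 further p53 targets, 27 reached 20 CPM in the 32-cell comparison, and 8 were called higher in mimic (Btg2, Plk2, Sesn2, Polk, Tob1, Perp, Pidd1 and Dcxr) and 0 lower, where 6.87% of all genes compared were higher and 5.36% lower. Of the 8, Tob1 (10.1 CPM in control) and Pidd1 (14.6 CPM) passed the filter through the mimic cells alone. The median log2 change of all 36 was 0.48. Btg2, an antiproliferative gene, went from 45.1 to 310 CPM, a ratio of 6.88 (lower bound 6.60), with a count in 25 of 39 control and 38 of 39 mimic cells. Plk2, a polo-like kinase of the damage response, went from 56.6 to 246 CPM. By function, 5 of 11 arrest and repair genes, 2 of 10 death genes and 1 of 6 genes of metabolism and other roles were higher, to be read against the same 6.87%.

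Of 13 regulators of p53 compared at the 32-cell stage 1 was higher and 0 lower, where 6.87% of all genes were higher and 5.36% lower. Their median log2 change was -0.05. The 1 was Rchy1, a ubiquitin ligase for p53 and itself a p53 target, which went from 67.9 to 149.9 CPM. Mdm4, the partner of MDM2, had 163.3 and 174.1 CPM, and Usp7, a deubiquitinase of MDM2 and p53, had 247 and 209 CPM. Ppm1d, the WIP1 phosphatase, stayed under 20 CPM at 9.95 and 11.3 CPM. In the BCL2 family 1 of 7 was higher, Bcl2l11 (BIM, a BH3-only protein), from 9.58 to 38.5 CPM, and 0 were lower, with the same shares over all genes beside it. Bcl2l11 too passed the filter through the mimic cells alone. Rchy1, Bcl2l11, the markers Pdgfra and Tspan8 and the 6 further targets named beside Btg2 and Plk2 go beyond the rule for named genes. They were named after their values were seen.

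At the 8-cell stage the question was whether the same genes differed 1 day earlier, and the calls there rested on few cells. Of 8 genes compared 2 were higher in mimic (Mdm2 and Zmat3) and 1 lower (Pmaip1), where 6.96% of 6570 genes were higher and 6.09% lower. The median log2 change over all 10 genes was 0.05. With the mean of log2 values over cells in place of pooled counts, the share of higher among all calls moved from 53.3% to 33.8%.

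Mdm2 ran from 0 to 426 CPM over control cells (median 71.8) and from 0 to 931 CPM over mimic cells (median 158.8), and 6 of 24 mimic cells were above every control cell. The pooled level went from 111.6 to 250 CPM, a ratio of 2.24 (2.15 to 2.32). Of the 3 mimic cells with under 5000 genes, 2 had 931 and 781 CPM of Mdm2 and 1 had 0. Without these 3 cells the mimic level was 198 CPM, short of 2-fold. Against the 2 control cells numbered 87 and 88 alone the log2 change was 0.26.

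Zmat3 went from 12.8 to 28.3 CPM, a ratio of 2.20 (1.97 to 2.47), with a count in 13 of 30 control and 12 of 24 mimic cells, and was compared only because the mimic cells passed 20 CPM. The control cells numbered 87 and 88 had no count of it. Without them the control level was 13.9 CPM and the log2 change 0.97, short of 2-fold, where it was 1.08 with all cells. A single mimic cell, 1 of the 3 with few genes, held 33.5% of its mimic counts at 296 CPM. Without the 3 cells the level was 21.6 CPM, and 0 of the p53 genes were then higher and 0 lower. The part of these cells in the mimic effect was not tested.

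Pmaip1 was listed at 0 in most 8-cell cells, with a count in 8 of 30 control and 5 of 24 mimic cells. Its pooled level was 26.2 CPM (24.6 to 27.95) in control and 11.9 CPM (10.7 to 13.2) in mimic, so that it was compared only through the control cells. Of 964 control counts, 559 lay in the 2 cells numbered 87 and 88, which had 198 CPM. The other 28 control cells had 11.9 CPM, close to the level in mimic cells, and Pmaip1 was then under 20 CPM and not compared. The same 2 cells had 3.18 CPM of Trp53 where the other control cells had 86.6 CPM, and 186 CPM of Ccng1 where the others had 54.7 CPM.

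Cdkn1a did not separate the 8-cell groups. It had a count in all 30 control and all 24 mimic cells, with medians of 184 and 202 CPM, and the pooled ratio was 0.840 (0.815 to 0.866). Trp53 had medians of 86.8 and 77.1 CPM and a pooled ratio of 1.32 (1.26 to 1.39). Ccng1, Bax and Trp53inp1 had log2 changes of 0.35, -0.35 and -0.36. Bbc3 and Phlda3 were below 20 CPM in both groups, at 1.47 and 4.30 CPM and at 14.2 and 10.5 CPM. In cells with Xist above the Y-linked genes (23 control and 14 mimic cells) 0 of 7 genes compared were higher and 1 lower, where calls over all genes went from 457 to 595 higher and from 400 to 446 lower. In those with Y-linked counts above Xist (7 and 8 cells) 4 of 9 were higher and 1 lower, while calls over all genes went up to 1202 higher and 1351 lower. No share of all genes is given for either subset, so these counts cannot be set against a share.

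The stages were also compared within control cells, which received the scrambled mimic. Stage cannot be told apart here from dose, nor from the Xist and Y-linked make-up, since 23 of 30 8-cell control cells had more Xist and 39 of 39 32-cell control cells more Y-linked counts. Of 7 genes compared, Ccng1 and Pmaip1 were higher at the 32-cell stage and Cdkn1a lower, where 30% of 7469 genes were higher and 20.1% lower, so the shares lie near those of all genes. Ccng1 went from 64.9 to 316 CPM, a ratio of 4.87 (4.67 to 5.08), and from a count in 20 of 30 cells to 39 of 39. Pmaip1 went from 26.2 to 141.4 CPM, a ratio of 5.39 (5.04 to 5.77), and from 8 of 30 cells to 26 of 39. Its log2 change was 2.39 with all cells and 3.46 without the 8-cell control cells numbered 87 and 88. With these 2 cells as the only 8-cell control cells it was -0.48, and that of Ccng1 was 0.76, so neither was then called higher. Cdkn1a went from 281 to 138 CPM, a ratio of 0.490 (0.476 to 0.505), just past 2-fold, with medians over cells of 184 and 116.1 CPM. Without the highest cell of each group Cdkn1a was no longer called.

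Trp53 was 1.73 times as high at the 32-cell stage (1.66 to 1.81) in control cells and 1.57 times (1.51 to 1.64) in mimic cells, short of 2-fold in both. With the mean of log2 values over cells both were past it, at 1.26 in control and 1.16 in mimic cells on the log2 scale, and with cells 87 and 88 as the only 8-cell control cells the log2 change was 5.06. Mdm2 had 111.6 and 148.9 CPM, Bax 84.2 and 137 CPM and Trp53inp1 173 and 151.8 CPM in control cells of the 2 stages. Bbc3, Phlda3 and Zmat3 were under 20 CPM in control cells at both stages.

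In mimic cells 5 of 9 genes were higher at the 32-cell stage (Ccng1, Pmaip1, Trp53inp1, Bax and Phlda3) and 0 lower, where 29.1% of 7594 genes were higher and 18.8% lower. Pmaip1 and Phlda3 passed the filter through the 32-cell mimic cells alone, and of the 7 genes with 20 CPM in 8-cell mimic cells 3 were higher. As in control cells, dose and stage cannot be told apart. Ccng1 went from 82.9 to 760 CPM, a ratio of 9.17 (8.81 to 9.54), and Pmaip1 from 11.9 to 184 CPM, a ratio of 15.5 (13.97 to 17.3). Trp53inp1 went from 134.5 to 425 CPM, with a count in 19 of 24 and 39 of 39 cells. Bax went from 65.96 to 193 CPM and Phlda3 from 10.5 to 28.6 CPM. Cdkn1a had 236 and 420 CPM, a ratio of 1.78 (1.74 to 1.83), where the control cells had the lower level at the later stage. Median-of-ratios scaling moved the median of all genes from 0.198 to -0.04 in mimic cells and from 0.20 to 0.06 in control cells, and left these counts at 5 and 0 in mimic and at 2 and 1 in control cells.

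Further p53 targets between the stages gave 9 higher and 5 lower of 27 compared in control, and 10 higher and 5 lower of 27 in mimic cells. Of these, 7 of the 9 and 2 of the 5 in control, and 5 of the 10 and 3 of the 5 in mimic cells, passed the filter only through the stage where they were high. Regulators gave 3 higher and 6 lower of 14 in control, and 1 higher and 6 lower of 14 in mimic cells. Likewise 2 of the 3 higher and 1 of the 6 lower in control, and 1 of the 6 lower in mimic cells, were under 20 CPM at the other stage. The BCL2 family gave 0 higher and 5 lower of 7 in control, and 0 higher and 3 lower of 7 in mimic cells, with 1 of the lower in each under 20 CPM at the 32-cell stage. Over all genes 30% were higher and 20.1% lower in control, and 29.1% higher and 18.8% lower in mimic cells. At the 8-cell stage 4 of 23 further targets were higher in mimic (2 of them under 20 CPM in control) and 1 lower, 0 of 14 regulators differed, and in the BCL2 family 1 of 7 was lower, where 6.96% of all genes were higher and 6.09% lower.

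**Figure D4:**
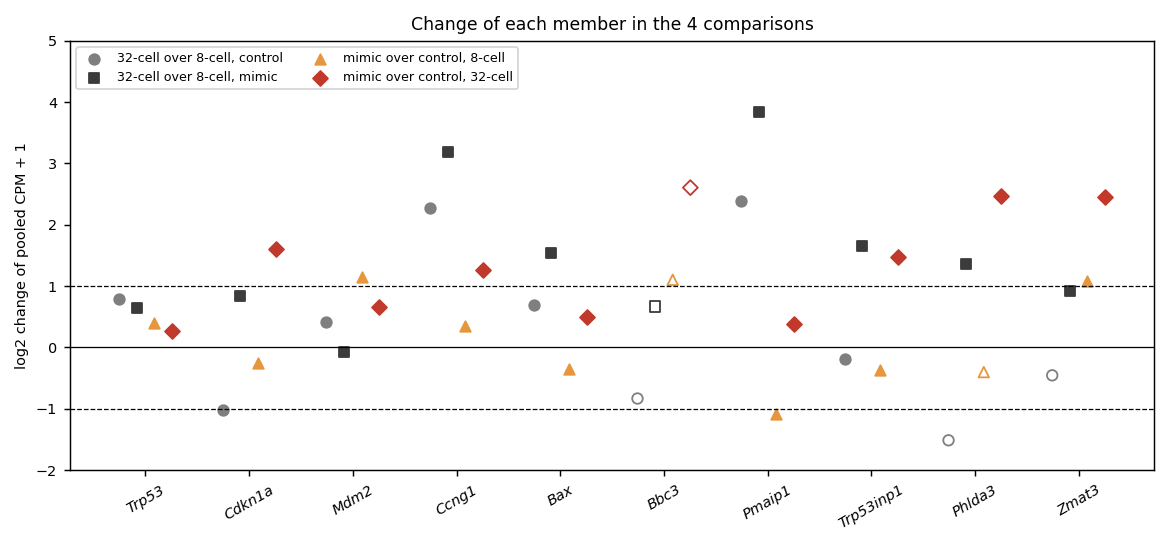
Log2 change of pooled CPM + 1 (vertical axis) of each p53 gene in the 4 comparisons; filled points reached 20 CPM in either group, open points did not, and dashed lines mark 2-fold. Filled red diamonds (mimic over control at the 32-cell stage) lie above the upper line for Cdkn1a, Ccng1, Trp53inp1, Phlda3 and Zmat3. The open red diamond of Bbc3, which stayed under 20 CPM, lies above it too (2.61). Pmaip1 has the largest change between the stages in mimic cells (3.85).

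From cell to cell the p53 genes varied largely apart from each other. Within a group, the median Spearman rho over the 45 pairs of the 10 genes was 0.08 in 8-cell control, 0.20 in 8-cell mimic, 0.05 in 32-cell control and 0.11 in 32-cell mimic cells. These cells share embryos, and many values are 0. The highest was 0.57, between Cdkn1a and Zmat3 in the 24 8-cell mimic cells. Trp53 and Cdkn1a had a rho of -0.10 in 32-cell control and 0.24 in 32-cell mimic cells, and Trp53 and Pmaip1 had 0.34 and -0.25.

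The genes most like Trp53 over 32-cell cells, by the mean of the rho within the 39 control and within the 39 mimic cells, were Mgarp (0.63), Spp1 (0.57), Fn1 (0.57), Gja1 (0.55) and Psmc5 (0.53), among 6211 genes. Trp53 and these genes share the cells, their depth and the difference between the ICM-like and TE-like classes. At the 8-cell stage the same genes had a rho with Trp53 between -0.23 and 0.25.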

How the data were processed

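The authors deposited expected counts with no normalisation, from reads aligned to mm10 with STAR (version 2.5.1b) and quantified with RSEM (version 1.3.0), per the labels and the submitters' processing notes. All values were whole numbers, so they appear rounded. The library kit marks no strand. Cells were grouped by the stage and treatment on their labels. The study's cell filter (at least 3000 genes, at most 10% mitochondrial counts) removed 0 cells, and 0 pairs of cells were identical. The 13 mitochondrial genes were left out, counts were summed per group and divided by their total, and log2 changes were taken with a pseudocount of 1 CPM. Intervals are at 95%. The reads carry no molecular identifiers and are not independent molecules, so the intervals and floors hold counting error only, and those of shares of cells treat cells as independent. Classes came from Seurat (version 5.3.0) in R (version 4.3.3) with 2000 variable genes, 25 components and a resolution of 0.6. Other steps used Python (version 3.11.15) with numpy, pandas and scipy. The pooling, calls and ratio intervals were tested on simulated data.

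The members, lists, thresholds and alternatives were chosen with earlier results of these data known. All 10 p53 genes are named. Of the other lists, up to 4 genes per comparison with the largest changes past 2-fold could be named, with Mdm4, Ppm1d and Usp7; those that bear on no result here are left out. Alternatives changed the pseudocount, filter, fold, scaling, pooling, depth, cells and classes. Those without the 8-cell mimic cells with under 5000 genes, and with only cells whose Xist is above the Y-linked genes were chosen after seeing the data. No sequence of Pmaip1 is shown.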

Additional observations from a re-analysis of the deposited data

Results flagged for a closer look

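For 5 of the 10 p53 genes the mimic over control log2 change had opposite signs at the 2 stages. The share of all genes with opposite signs was not taken, so this count is not read as a trait of these genes. Cdkn1a had -0.25 at the 8-cell stage and 1.60 at the 32-cell stage. Pmaip1 had -1.08 and 0.38, and its 8-cell value rests on the 2 control cells numbered 87 and 88. Trp53inp1 had -0.36 and 1.48. Phlda3 had -0.40 and 2.48, and it was under 20 CPM in both 8-cell groups. Bax had -0.35 and 0.49, short of 2-fold at both stages. The 8-cell sign of each turned under at least 1 alternative, to 0.23 for Cdkn1a and 0.19 for Bax against control cells 87 and 88 alone, to 0.39 for Pmaip1 in cells with Xist and no Y-linked counts, to 0.62 for Trp53inp1 in cells with Y-linked counts above Xist and to 0.49 for Phlda3 with the mean of log2 over cells. The difference between the stages was not tested, since each group is 1 sample, and the stages also differ in dose and in the Xist and Y-linked make-up of the groups.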

How the results depend on the processing

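Mimic over control at the 32-cell stage had 5 higher and 0 lower. In ICM-like cells by cluster 1 (Pmaip1) was lower, at -1.39, and 0 in ICM-like cells by marker score, where Pmaip1 had -0.39. Pmaip1 was past 2-fold higher under 3 alternatives, with at most 1.99 in TE-like cells. Mdm2 was past it under 1, at 1.10 in ICM-like cells by marker score. Under all 16 alternatives Cdkn1a, Ccng1, Phlda3 and Zmat3 kept a log2 change past 2-fold, and Trp53inp1 did under 15. At the 8-cell stage (2 higher, 1 lower) the counts moved most. Higher were 1 with a pseudocount of 5 CPM, without the highest cell and without control cells 87 to 88 (where Zmat3 had 0.97), 0 in cells with Xist above or without Y-linked counts and without the mimic cells under 5000 genes, and 4 in cells with Y-linked counts above Xist. Lower were 0 with a pseudocount of 5 CPM, the mean of CPM, thinned cells, without the highest cell, without cells 87 to 88 and without the cells under 5000 genes, 2 in cells with Xist and no Y-linked counts, and 4 without control cells 1 to 30, which leaves 2. Calls over all genes (457 higher, 400 lower) rose as well, to 1166 and 1079 in the cells with Xist and no Y-linked counts and to 1672 and 1293 without cells 1 to 30. In the Xist-only cells (3 mimic cells) Mdm2 turned to -0.30 and Pmaip1 to 0.39. Between stages in control cells (2 higher, 1 lower), 4 were higher at a fold of 1.5 or with the mean of log2, and lower were 2 with no filter, a filter of 5 CPM or without cells 1 to 30, and 0 without the highest cell; Pmaip1 turned to -0.48 without cells 1 to 30. Over all genes the 2240 higher became 2981 at a fold of 1.5 and 2673 with the mean of log2, and the 1500 lower became 3448, 2333 and 1836 with no filter, a filter of 5 CPM and without cells 1 to 30. In mimic cells (5 higher, 0 lower), 8 were higher at a fold of 1.5 or with the mean of log2, where the 2213 higher of all genes became 3012 and 2971. The cause was not tested, beyond the fewer cells that some settings keep. No paired analysis was possible because the labels pair no cells. Where a gene has few counts, as Bbc3 with 22 in 32-cell control cells, depth limits what can be said.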
